A study of Mus musculus with 27 samples.

Results

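The 47 genes described here encode proteins of the cytoplasmic ribosome, the particle that translates mRNA in every cell. They were chosen by exact gene symbol as a set of housekeeping promoters, with no threshold on a measured value. They are 47 of the 22367 protein-coding genes of the GENCODE vM1 annotation of mouse assembly NCBIM37 (mm9). Of these, 28 encode proteins of the large subunit (names beginning *Rpl*) and 19 encode proteins of the small subunit (*Rps*).

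To determine where methylation of histone H3 lysine 4 (H3K4) is lost after deletion of *Kmt2d* in heart muscle, the study profiled H3K4me1, H3K4me2 and H3K4me3 by ChIP-Seq in C57BL/6 hearts at E11.5 (E, embryonic day). Control hearts were *Tnnt2::Cre; Kmt2d fl/+; mTmG/+* and mutant hearts were *Tnnt2::Cre; Kmt2d fl/fl; mTmG/+*, so controls also carried Cre, the reporter and 1 floxed copy of *Kmt2d*. Cre was made from the *Tnnt2* promoter, which is active in heart muscle cells, whereas whole hearts were used, and fewer cells with a mark cannot be told apart from less of the mark per cell. For each genotype, 3 pools of 30 hearts were each divided into an input and 3 immunoprecipitations, which gave 24 of the 27 libraries in the series (9 groups of 3), and the other 3 libraries, KMT2D ChIP-Exo from cardiomyocytes, were not used here.

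The values are the authors' lists of genomic regions. One list merges the peaks of the 3 marks over all replicates and holds 358833 regions. From it the authors drew lists of 2730 regions for H3K4me1 and 6699 for H3K4me2 in which the mark had decreased in the mutant, each region with an identical entry in the merged list. The deposited H3K4me2 list differs in length from the one the study's text describes, and it was used as deposited. The lists hold coordinates only, with no read count, fold change or value per sample. No difference could therefore be set against the spread between pools, no test was run, and the read depth is unknown. The size of a drop in a mark is likewise unknown, and the marks at promoters outside the lists may have changed too. The lists hold no expression value, so the tissue was not checked against marker genes. Below, the TSS region of a gene is the merged region that holds its transcription start site (TSS), taking the widest where several do, and a gene is called lower for a mark when a region over one of its TSS is in that mark's decreased list.

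A ribosome consists of a small subunit, which decodes the mRNA, and a large subunit, which joins amino acids and holds the tunnel through which the new protein leaves. Genes for its proteins are spread over the genome, are transcribed at high rates in nearly all cells, and give short mRNAs that begin with a run of pyrimidines (a terminal oligopyrimidine, or TOP, sequence) through which mTOR signalling controls their translation. Active promoters of such genes carry H3K4me3 around the TSS and H3K4me2 at its flanks, whereas H3K4me1 is found mainly at enhancers, and KMT2D is a methyltransferase that adds methyl groups to this lysine.

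The promoters of the widest and narrowest TSS regions on either side of the H3K4me2 call are shown first, since the results below turn on width and on the call. *Rpl24* (called) and *Rps3* (not called) had the widest regions of their class, and *Rps23* (called) and *Rps16* (not called) the narrowest. The sequences come from RefSeq, were placed on NCBIM37 by exact match and end at or before the annotated start of the gene. Capitals mark a match to the ETS core CCGGAA in *Rps3* and, on the opposite strand, to the YY1 core AAGATGG and the GC box GGGCGG in *Rps16*.
Rpl24, chr16:55966138-55966387, plus strand: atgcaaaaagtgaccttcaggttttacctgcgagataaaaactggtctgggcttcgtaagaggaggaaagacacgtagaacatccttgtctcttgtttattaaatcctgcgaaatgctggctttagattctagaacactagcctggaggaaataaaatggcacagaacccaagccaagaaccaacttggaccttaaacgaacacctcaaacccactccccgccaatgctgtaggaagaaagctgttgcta
Rps23, chr13:91062477-91062726, plus strand: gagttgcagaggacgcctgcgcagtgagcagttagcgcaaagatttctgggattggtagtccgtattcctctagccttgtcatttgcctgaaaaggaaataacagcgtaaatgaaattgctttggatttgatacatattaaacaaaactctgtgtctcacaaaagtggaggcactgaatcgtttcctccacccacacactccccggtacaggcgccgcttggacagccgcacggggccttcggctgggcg
Rps3, chr7:106632249-106632469, minus strand: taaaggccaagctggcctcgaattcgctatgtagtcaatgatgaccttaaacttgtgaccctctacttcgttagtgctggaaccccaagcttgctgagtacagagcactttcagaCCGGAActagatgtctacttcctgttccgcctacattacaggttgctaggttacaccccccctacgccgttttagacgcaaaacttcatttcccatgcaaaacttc
Rps16, chr7:29135458-29135670, plus strand: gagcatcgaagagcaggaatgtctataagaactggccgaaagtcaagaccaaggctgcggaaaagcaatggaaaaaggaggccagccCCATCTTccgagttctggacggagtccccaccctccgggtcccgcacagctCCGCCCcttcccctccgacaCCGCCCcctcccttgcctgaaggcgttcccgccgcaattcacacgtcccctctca
In *Rps3* the ETS core began 135 bases before the RefSeq start. In *Rps16* the YY1 core lay 163 bases before the start and the GC boxes 112 and 92 bases before it. The printed stretches of *Rpl24* and *Rps23*, both called lower, held none of the motifs searched, and the GC box of the full *Rps23* promoter reached past its printed end.

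All 47 ribosomal protein genes had a TSS inside a merged region, against 70.4% of coding genes (15752 of 22367). Their TSS regions ranged from 2100 to 12580 bp in width, with quartiles of 3700 and 6400 bp and a median of 4900 bp, whereas the median over all coding genes with such a region was 3720 bp (quartiles 2400 and 5840 bp). In 35 of the 47 genes the region was wider than that coding median. The widest region belonged to *Rps3*, whose protein sits where mRNA enters the small subunit. It spanned chr7:106621286-106633865, or 12580 bp, and was wider than 95.3% of coding TSS regions. Next came *Rpl24*, the gene mutated in the Belly spot and tail mouse, at 11200 bp (chr16:55964986-55976185). *Rplp0*, which encodes the base of the stalk that recruits elongation factors, had 10780 bp (chr5:116009346-116020125). *Rpl12*, a neighbour of the stalk, had 10120 bp (chr2:32815706-32825825), and *Rpl4*, which lines the exit tunnel, had 10040 bp (chr9:64018326-64028365). The 5 widest regions therefore spanned both subunits.

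At the other end, *Rps23*, a protein of the decoding centre, had the narrowest region, at 2100 bp (chr13:91062026-91064125), and only this gene and *Rps16* fell below 3000 bp. *Rps16* had 2820 bp (chr7:29134666-29137485). *Rpl13* had 3160 bp, *Rps27a*, which is made as a fusion with ubiquitin, had 3220 bp, and *Rpl11* had 3320 bp. *Rpl11* was the only member of the set with its annotated starts in more than 1 merged region, the second of them 1360 bp wide. The small subunit genes had a median of 4300 bp and the large subunit genes one of 5050 bp, with quartiles that overlapped (3890 to 5740 bp and 3555 to 7310 bp).

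The regions reached further into the gene than away from it. The median reach was 1129 bp upstream and 3433 bp downstream of the TSS, against 1169 and 2200 bp over all coding genes, so the greater width lay on the downstream side. Ribosomal protein genes are short, with a median length of 3569 bp against 22688 bp for coding genes with a TSS region. In 21 of the 47 (44.7%) a single region covered the whole gene, as did the region in 6.48% of coding genes with a TSS region. *Rps3* showed the longest downstream reach, at 10962 bp for a gene of 5843 bp. *Rplp0* had the least upstream, at 130 bp, beside 10649 bp downstream. *Rpl14*, by contrast, had the longest upstream reach, at 5166 bp, and *Rpl35*, whose protein lies at the tunnel exit, had 4881 bp. *Rpl24* and *Rpl11* are the long genes of the set in the annotation used, at 42639 and 25164 bp. Their regions covered 23.0% and 11.8% of these annotated spans. Whether such a span takes in a neighbouring gene was not checked, so these lengths and shares hold for the annotation only.

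**Figure D1:**
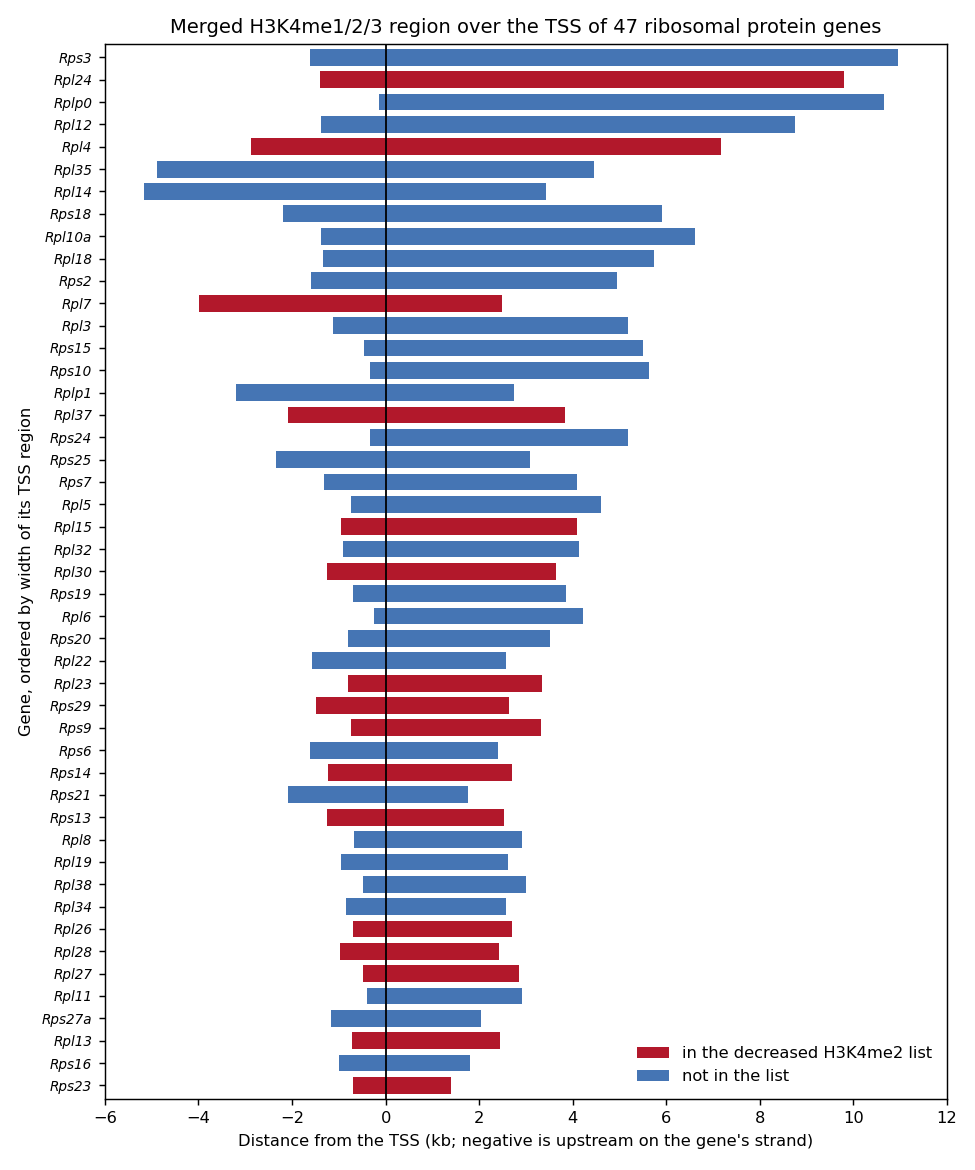
Each bar is the merged H3K4me1/2/3 region over the TSS of 1 of the 47 ribosomal protein genes, drawn to scale in kb from the TSS, with upstream to the left on the strand of the gene and genes ordered by width. Red bars are the 16 regions in the decreased H3K4me2 list and blue bars the other 31, and most bars extend further downstream than upstream.

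In 12 of the 47 genes (25.5%) the region also held the TSS of another coding gene, against 21.1% of coding genes with a TSS region. These were *Rplp0* (with *Gcn1l1*), *Rpl12* (*Lrsam1*), *Rpl4* (*Snapc5* and *Zwilch*), *Rpl35* (*Arpc5l*), *Rps18* (*B3galt4* and *Vps52*), *Rpl18* (*Sphk2*), *Rps2* (*Ndufb10*), *Rpl7* (*Rdh10*), *Rps15* (*Apc2*), *Rps25* (*Trappc4*), *Rpl15* (*Nkiras1*) and *Rps27a* (*1700034F02Rik*). No 2 of the 47 shared a region with each other. In 7 (14.9%) the neighbour was a divergent partner, that is, a coding TSS on the other strand within 1 kb. The share was 15.3% of coding genes with a TSS region. A decreased H3K4me2 call in such a region cannot be assigned to either gene.

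For H3K4me2, 16 of the 47 TSS regions (34.0%, 95% Wilson interval 22.2% to 48.3%) were called lower in mutant hearts, against 29.2% of coding genes with a TSS region (4603 of 15752). The interval, like the others below, covers counting only and treats genes as independent draws. It held the background share. The 11 called large subunit genes were *Rpl4*, *Rpl7*, *Rpl13*, *Rpl15*, *Rpl23*, *Rpl24*, *Rpl26*, *Rpl27*, *Rpl28*, *Rpl30* and *Rpl37*. The 5 called small subunit genes were *Rps9*, *Rps13*, *Rps14*, *Rps23* and *Rps29*. These made 39.3% of the 28 large subunit genes (23.6% to 57.6%) and 26.3% of the 19 small subunit genes (11.8% to 48.8%), and the intervals overlapped widely.

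Wider regions were more often called over the genome, so the set was compared with coding promoters of like width. Among the other coding genes in 10 width classes, the share called lower in H3K4me2 was 3.32% in the narrowest class (60 to 1420 bp), 29.1% at 3160 to 3680 bp and 48.4% at 9260 bp or more. Weighting these shares by the widths of the 47 regions gave 35.2%, or 16.6 genes, beside the 16 found. The difference was -1.2 percentage points. The ribosomal protein promoters were thus called about as often as other promoters of their width.

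Within the set the order of width ran the other way. The 16 called regions had a median of 4100 bp (quartiles 3400 and 5275 bp) and the 31 not called 5400 bp (3930 and 6810 bp). Over all coding genes, called regions were the wider ones, with medians of 4780 and 3320 bp. Of the 24 genes at or below the median width of the set, 11 (45.8%) were called, and of the 23 above it, 5 (21.7%). Of the 13 with at least 3000 and under 4000 bp, 6 (46.2%) were called, against 30.0% of other coding genes of that width. From 4000 to under 6000 bp it was 6 of 19 (31.6%) against 34.7%. At 8000 bp or more it was 2 of 9 (22.2%) against 46.6%. The 2 called regions among the widest 9 were those of *Rpl24* and *Rpl4*. These counts are small, the split by width was made with the calls known, and no test was run on it.

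**Figure D2:**
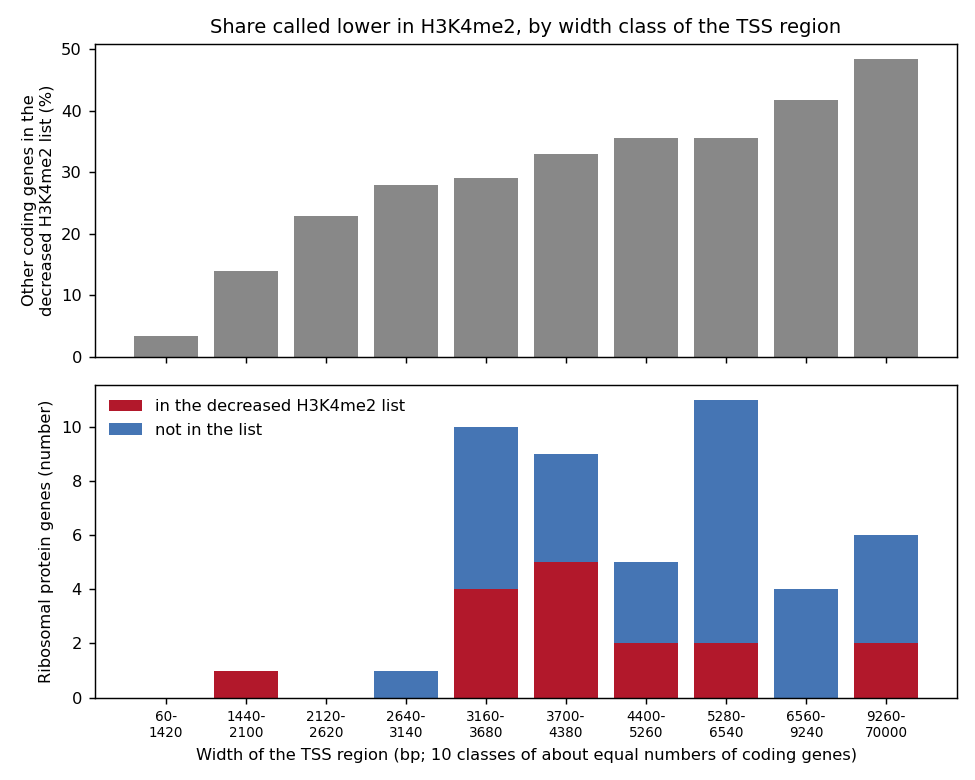
The upper panel gives the percentage of other coding genes whose TSS region is in the decreased H3K4me2 list, in 10 width classes of about equal numbers of genes, and it rises from 3.32% to 48.4%. The lower panel gives the number of ribosomal protein genes in the same classes, called (red) and not called (blue). Called were 4 of 10 at 3160 to 3680 bp, 5 of 9 at 3700 to 4380 bp and 2 of 5 at 4400 to 5260 bp. In the wider classes it was 2 of 11 at 5280 to 6540 bp, none of 4 at 6560 to 9240 bp and 2 of 6 at 9260 bp or more.

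Among the called genes, the 5 widest regions were those of *Rpl24*, *Rpl4*, *Rpl7* (6480 bp, chr1:16092246-16098725), *Rpl37* (5920 bp, chr15:5064526-5070445) and *Rpl15* (5060 bp, chr14:19099806-19104865). *Rpl4*, *Rpl7* and *Rpl15* are 3 of the 12 that share their region with another coding TSS. In the annotation used, *Rpl24* and *Rpl37* do not. For *Rpl24* this rests on a gene span of 42639 bp, which was not checked for a neighbouring gene. The 5 narrowest called regions were those of *Rps23*, *Rpl13* (3160 bp, chr8:125625526-125628685), *Rpl27* (3340 bp, chr11:101303126-101306465), *Rpl26* (3400 bp, chr11:68714386-68717785) and *Rpl28* (3400 bp, chr7:4743506-4746905). *Rpl26* encodes a protein also known to bind the mRNA of p53. The remaining called regions lay between the median of the set and its lower quartile. *Rpl30* had 4900 bp, *Rpl23* and *Rps29* 4140 bp each, and *Rps9* 4060 bp. *Rps14*, the gene whose human counterpart is deleted in a form of myelodysplastic syndrome, had 3940 bp, and *Rps13* had 3800 bp.

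The 5 widest regions outside the list were those of *Rps3*, *Rplp0*, *Rpl12*, *Rpl35* (9340 bp) and *Rpl14* (8600 bp). *Rps18* (8120 bp), *Rpl10a* (8000 bp), *Rpl18* (7080 bp), *Rps2* (6540 bp) and *Rpl3* (6320 bp), whose protein reaches the peptidyl transferase centre, followed and were not called either. The list of genes known from Diamond-Blackfan anaemia, an inherited failure of red cell production, held 6 names and was not complete. None of the 6 was called, beside 29.2% of coding genes with a TSS region. A count of 0 among 6 allows a share of up to 50% by a rough rule, 3 divided by the number of genes. The 95% Wilson interval reached 39%. The called *Rpl15*, *Rpl26*, *Rpl27* and *Rps29* are known from the same disease and were not on that list, so the count does not describe the disease genes as a group. *Rps19*, the one most often mutated, had 4560 bp. *Rpl5* (5340 bp) and *Rpl11* (3320 bp) encode the proteins that bind MDM2 when ribosome assembly fails. *Rps24* had 5520 bp, *Rps7* 5400 bp and *Rps10* 5960 bp. Other genes with a known special role were also outside the list. *Rps6*, the target of the S6 kinases, had 4020 bp, *Rpl38*, mutated in the Tail short mouse and needed for translation of *Hox* mRNAs, had 3480 bp, and *Rpl22* had 4160 bp.

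The other regions not called ranged from 2820 bp (*Rps16*) to 5980 bp (*Rps15*). Between them lay *Rplp1*, a stalk protein gene, at 5940 bp, *Rps25* at 5440 bp, *Rpl32* at 5040 bp, *Rpl6* at 4460 bp and *Rps20* at 4300 bp. *Rps21* had 3840 bp, *Rpl8* 3600 bp, *Rpl19* 3580 bp, *Rpl34* 3420 bp and *Rps27a* 3220 bp. Called and not called widths thus overlapped over nearly the whole range of the set.

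Sharing a region did not go with more calls in this set. Of the 12 genes whose region held another coding TSS, 3 (25%) were called, against 39.0% of other coding genes with a shared region (1290 of 3310), with median widths of 6810 and 5020 bp. Of the 35 with a region of their own, 13 (37.1%) were called. Among other coding genes with a region of their own, 26.6% were called (3297 of 12395), with a median width of 3380 bp beside 4140 bp for the 35. At the widths of the 35, the share was 32.1%, a comparison added after the data were seen. Small nucleolar RNA (snoRNA) genes, which many ribosomal protein genes carry in their introns, lay in 15 of the 47 (23 snoRNA genes), and 6 of these 15 were called, against 42% of other coding genes that hold a snoRNA gene (100 of 238). Among chromosomes with at least 3 of the genes, 3 of 7 were called on chromosome 7, where 21.9% of other coding genes were called, and 3 of 6 on chromosome 11 (31.0%). On chromosome 15 it was 2 of 4 (24.5%) and on chromosome 9 it was 1 of 4 (28.2%). None was called of the 4 on chromosome 4 (31.0%), the 4 on chromosome 17 (28.4%), the 3 on chromosome 2 (27.3%) and the 3 on chromosome 5 (30.0%). These counts are too small to rank the chromosomes.

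For H3K4me1, none of the 47 TSS regions was called lower, against 1.29% of coding genes (203 of 15752). A count of 0 among 47 allows a share of up to 6.38% by the rough rule of 3 divided by the number of genes. The 95% Wilson interval reached 7.56%. The widths of the 47 regions gave an expected share of 1.63%, or 0.766 genes, so a count of 0 is close to what other promoters of these widths showed.

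Regions away from the TSS added little. In the gene bodies or within 5 kb of a TSS lay 118 merged regions, of which 48 held a TSS of the gene and 70 did not. These 70 had a median width of 390 bp. A ribosomal protein gene had a median of 2 such regions, against 5 for a coding gene, and 12 had a single one. *Rpl11* had the most, at 7. Counting any of these regions, 17 of the 47 genes (36.2%) had a decreased H3K4me2 region, against 28.7% of coding genes with a region there (5740 of 20025). That background takes in coding genes without a TSS region, whereas all 47 had one, so the 2 shares are not like for like. Among genes whose TSS region was not called, 1 of 31 (3.23%) had such a region, against 8.41% of coding genes (938 of 11149). None of the 47 had a decreased H3K4me1 region there, against 7.08% of coding genes (1417 of 20025). The 95% Wilson interval of this count of 0 reached 7.56% and so held the background share. The search takes in the gene body, and the 47 genes are shorter, with a median of 3569 bp. Coding genes with a TSS region had a median of 22688 bp. The added gene was *Rpl8*, whose protein lies at the catalytic centre of the large subunit. Its decreased region was 3800 bp wide (chr15:76728346-76732145), lay 2356 bp upstream and held the TSS of the neighbour *Commd5*, whereas the TSS region of *Rpl8* itself was not called.

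Between 5 and 10 kb lay a few more decreased regions, which are listed with no share over all coding genes at that distance. *Rpl11* had 1 of 3400 bp over the TSS of *Tceb3*, *Rps10* 1 of 8040 bp over that of *Nudt3* and *Rps24* 1 of 120 bp with no coding TSS. *Rps9* had 1 of 6220 bp over the TSS of *Mboat7* and *Tsen34* and a second of 60 bp (chr7:3662406-3662465). That 60 bp region was in both decreased lists and was the only decreased H3K4me1 region within 10 kb of any of the 47 genes. The 3 widest of these regions thus lay over promoters of neighbouring genes.

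The GC content of the TSS regions was close to that of other promoters. Its median was 49.6% (SD across genes 3.07, n=47), against 50.5% (SD 5.22) over coding genes, with 2.91 and 2.83 CpG per 100 bp. The called regions had a median of 47.7% and those not called 50.6%. The same order was seen over all coding genes, at 48.4% and 51.7%. The lowest values were those of the called *Rpl30* (43.3%), *Rpl4* (44.1%) and *Rps29* (44.7%), and the highest those of *Rpl10a* and *Rps15* (56.0% each), neither called. The called *Rpl13* stood above most at 54.2%, so the groups overlapped. GC content can change how many reads a region receives, and its part in the calls was not tested.

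**Figure D3:**
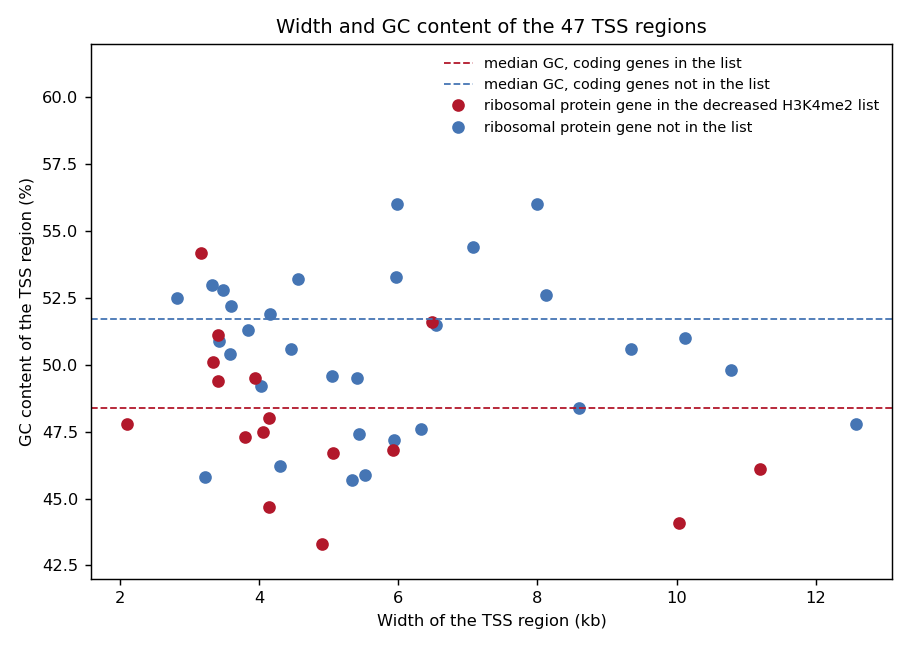
Each point is the TSS region of 1 ribosomal protein gene, with its width in kb on the x axis and its GC content in percent on the y axis, red if called lower in H3K4me2 and blue if not. The dashed lines are the median GC contents of coding genes in the list (48.4%) and not in it (51.7%), and the red points lie mostly low and to the left while overlapping the blue ones.

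RefSeq promoters, from 250 bases before to 50 bases after an annotated start, were at hand for 37 of the 47 genes. They held a median of 21 CpG dinucleotides in 300 bases and 57.0% GC, beside 20 and 60.7% in the promoters of other coding genes with a TSS region. Motifs were searched on both strands except for the pyrimidine tract, which was read on the strand of the gene as a C followed by 4 or more pyrimidines within 10 bases of the start. To keep genes with several starts from having more chances of a match, the shares are given for genes with 1 RefSeq start, and the background is the 8570 other coding genes with 1 start and a TSS region. The ETS core CCGGAA, bound by factors such as GABPA, was in 17 of 30 (56.7%) against 25.3% of these (2170 of 8570). The pyrimidine tract was in 15 of 30 (50%) against 32.0%. The GC box GGGCGG, bound by SP1, was in 17 (56.7%) against 64.4%. Against all 14731 coding genes with 1 start, many of which have no TSS region, the background shares were 18.9%, 31.0% and 45.3%, so the order for the GC box turns with the background. The YY1 core AAGATGG (6.67% against 6.81%), the E-box CACGTG (6.67% against 10.1%) and the TATA box TATAAA (6.67% against 7.62%) were each in 2. A match is a run of letters and does not show that a factor binds there.

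The ETS core was in 4 of the 12 called genes with 1 start (33.3%) and in 13 of the 18 not called (72.2%). In other coding genes with a TSS region the order was the reverse, at 30.6% of called and 23.2% of not called genes. The called genes with the motif were *Rpl15*, *Rpl26*, *Rpl27* and *Rpl37*. The pyrimidine tract was in 4 of the 12 (33.3%) and 11 of the 18 (61.1%), against 31.7% and 32.2% of other coding genes. The groups are small, and whether the motifs and the calls go together was not tested. The pyrimidine tracts, in capitals, follow for the 4 called genes that have one and for the 4 longest among those not called, each as 30 bases of NCBIM37 around the RefSeq start.
Rpl15, chr14:19103486-19103515, minus strand: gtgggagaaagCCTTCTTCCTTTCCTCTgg
Rpl28, chr7:4744552-4744581, plus strand: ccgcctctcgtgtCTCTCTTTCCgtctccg
Rps9, chr7:3655628-3655657, plus strand: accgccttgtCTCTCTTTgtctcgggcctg
Rps23, chr13:91062712-91062741, plus strand: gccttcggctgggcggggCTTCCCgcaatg
Rpl35, chr2:38860637-38860666, minus strand: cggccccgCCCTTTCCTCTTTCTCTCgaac
Rpl14, chr9:120480619-120480648, plus strand: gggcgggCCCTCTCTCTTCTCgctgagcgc
Rps10, chr17:27772175-27772204, minus strand: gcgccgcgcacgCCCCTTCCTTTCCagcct
Rpl34, chr3:130433241-130433270, minus strand: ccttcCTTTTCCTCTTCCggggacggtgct
The tract was longest in *Rpl35* (18 bases), which was not called, and next in *Rpl15* (17 bases), which was called. It was 14 bases long in *Rpl14* and 13 in *Rps10* and *Rpl34*, and 10, 8 and 6 bases long in *Rpl28*, *Rps9* and *Rps23*. Long tracts were therefore found on both sides of the H3K4me2 call.

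**Figure D4:**
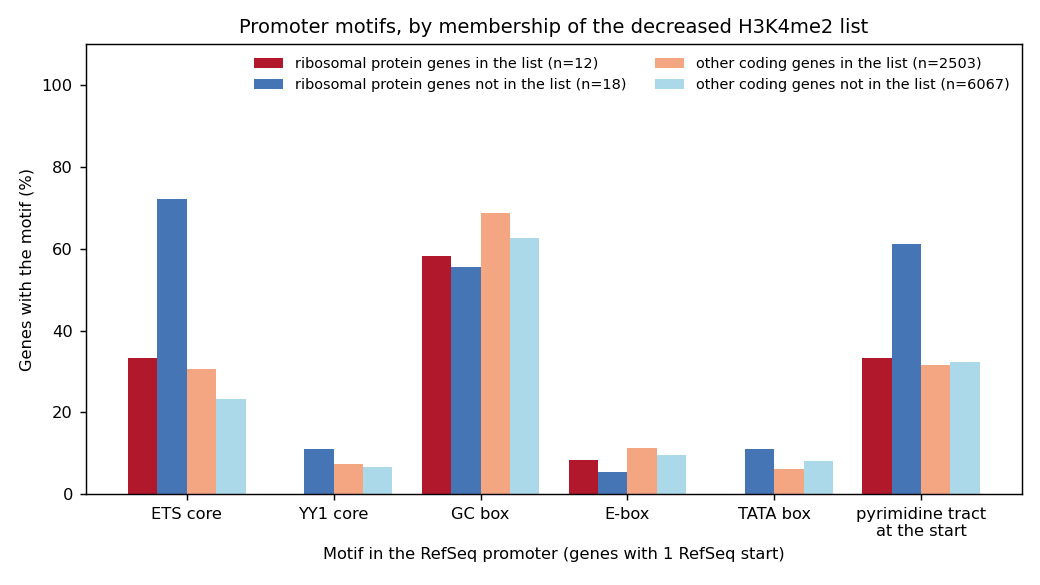
Bars give the percentage of genes with each motif in the RefSeq promoter, among genes with 1 RefSeq start, for ribosomal protein genes called lower in H3K4me2 (12) and not called (18) and for other coding genes with a TSS region, called and not called. The ETS core is in 33.3% and 72.2% of the ribosomal protein genes and in 30.6% and 23.2% of the others.

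Related gene lists were described in the same way, beside the 29.2% of all coding genes with a TSS region. Of 36 further cytoplasmic ribosomal protein genes with a TSS region, 15 (41.7%, 27.1% to 57.8%) were called lower in H3K4me2, among them *Rps15a* (13740 bp), *Rpl23a* (9360 bp), *Rpl35a* (9300 bp) and *Rpsa* (4420 bp). Their median width was 4650 bp. Among those not called was *Rpl7a* (12900 bp). With these added, 31 of 83 ribosomal protein genes (37.3%) were called. Of 19 genes for translation factors and other TOP mRNAs, 8 (42.1%, 23.1% to 63.7%) were called, at a median of 6540 bp. *Pabpc1*, the poly(A)-binding protein (7460 bp), and *Npm1*, nucleophosmin (4420 bp), were called, and *Eef1a1* (6540 bp) and *Eef2* (12860 bp), both elongation factors, were not. Of 20 genes of nucleolar ribosome biogenesis, 11 (55.0%, 34.2% to 74.2%) were called, at a median of 4290 bp. These included *Fbl* and *Nop58*, which act in methylation of ribosomal RNA (3900 and 4820 bp), and *Polr1a* and *Polr1b*, subunits of RNA polymerase I (6320 and 2760 bp). Of 76 mitochondrial ribosomal protein genes, 28 (36.8%, 26.9% to 48.1%) were called, at a median of 3270 bp. The interval of each list overlapped that of the 47 genes. That of the nucleolar list lay above the share of all coding genes. In the body or within 5 kb of a TSS, 14 of its 20 genes (70.0%) had a decreased H3K4me2 region, against 28.7%. The 28.7% takes in coding genes without a TSS region, whereas all 20 had one. In 7 of the 20 (35.0%) the region also held another coding TSS, against 21.1% of coding genes with a TSS region. The lists were not matched for width, and they were chosen with earlier results of these data known. None of these lists had a TSS region called lower in H3K4me1, against 1.29% of coding genes with a TSS region. The Wilson interval reached 9.64% for the further ribosomal protein genes and 16.8% for the translation factor list. It reached 16.1% for the nucleolar list and 4.81% for the mitochondrial list. Each interval held the background share, so these counts do not set the lists apart from other coding genes.

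**Figure D5:**
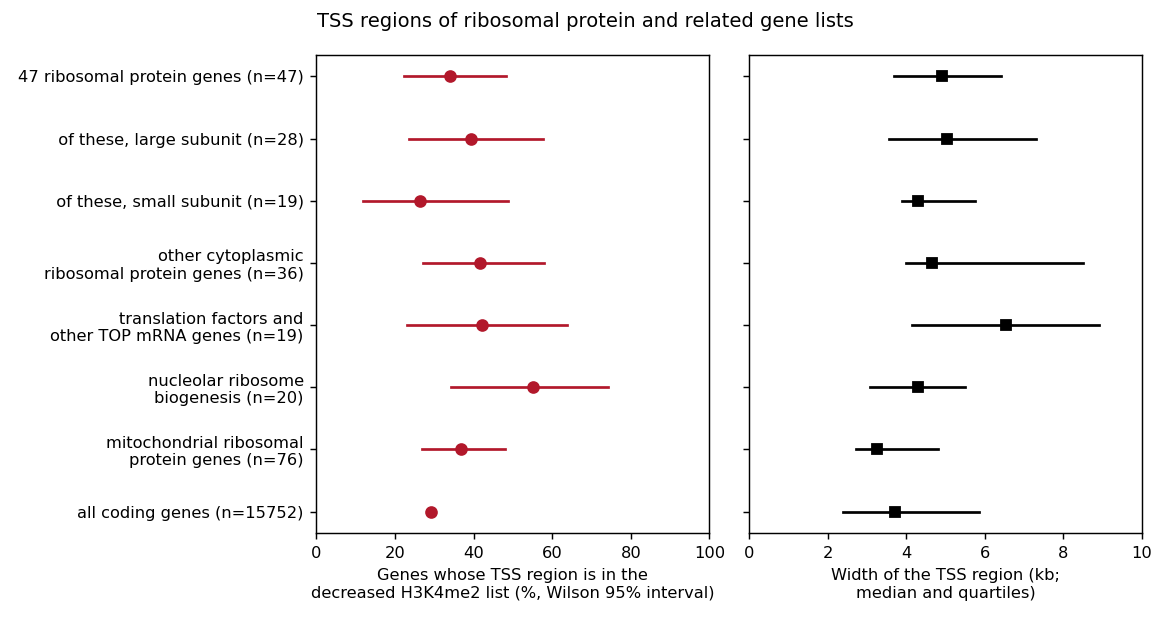
On the left, points give the percentage of genes whose TSS region is in the decreased H3K4me2 list and lines the 95% Wilson interval, for the 47 ribosomal protein genes, their subunits, 4 related lists and all coding genes. On the right, squares give the median width of the TSS region in kb and lines the quartiles. The interval of each list on the left overlaps that of the 47 genes. That of the nucleolar list (34.2% to 74.2%) lies above that of all coding genes (28.5% to 29.9%), with no matching for width.

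Ribosomal protein genes have many processed copies, in which the mRNA sequence but not the promoter is carried along. Of 108 annotated ribosomal protein pseudogenes, 12 (11.1%, 6.47% to 18.4%) had their annotated start inside a merged region, against 8.47% of all pseudogenes (441 of 5209) and all 47 of the genes. These regions had a median width of 1280 bp, against 1500 bp for all pseudogenes with a start in a region. Of the 12, 1 was called lower in H3K4me2, that of *Rpl30-ps3* (4780 bp, on chromosome 2), against 46 of the 441 over all pseudogenes. Reads from nearly identical copies can be placed wrongly, and how such reads were treated is not given in the sources used here.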

How the data were processed

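ChIP-Seq libraries were made from E11.5 control and mutant hearts. The submitters' processing notes name CASAVA 1.8.2, FastQC, Bowtie2, Bowtie and SAMtools with mm9. The peak caller, its settings and the test behind the decreased lists are not given in the sources used here. The authors deposited 3 region lists, with coordinates only, and cut the decreased lists at a false discovery rate they set. Samples were grouped by title.

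Coordinates were converted to 1-based positions and joined to GENCODE vM1 in Python 3.11.15 (numpy 2.4.6, scipy 1.17.1, matplotlib 3.10.9). Calls required identical coordinates in both lists. Expected shares were weighted over 10 width classes of other coding genes, a step tested on simulated data. Promoter sequences were from RefSeq. Promoters of *Rpl3*, *Rpl7*, *Rpl8*, *Rpl30*, *Rpl32*, *Rplp1*, *Rps14*, *Rps20*, *Rps27a* and *Rps29* were not analysed here.

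Members and lists were chosen with earlier results of these data known. Genes were named by extremes of width within and outside the H3K4me2 list, shared regions, decreased regions away from the TSS, Diamond-Blackfan anaemia and known special roles, and the other genes of the set were added to account for each.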

Additional observations from a re-analysis of the deposited data

How the results depend on the processing

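Of 38 alternative values for 7 results, 36 stayed within 1.5 times the value given. The alternatives took protein-coding transcripts only, the 5′ end of the gene only, regions within 1 kb of a TSS, each region once, the region nearest the 5′ end, an overlap of 1 bp, regions of at least 1000 bp, other distances, other width classes, regions of a single promoter (added after the data were seen) and a longer gene list. The overlap of 1 bp could not change a count, since each decreased region has an identical merged region. Counting each region once could not either, since no genes of the set share one. Nor could the floor of 1000 bp, since every region over a TSS of the set was wider, down to the 1360 bp second region of *Rpl11*. The median width lay between 4700 and 4900 bp. The H3K4me2 share expected from width lay between 32.1% and 35.6%. Adding the further ribosomal protein genes gave 31 called lower in H3K4me2, of 83. The longer list raised the count, whereas the share was 37.3% beside 34.0%. Within 10 kb of a TSS, 20 genes had a decreased H3K4me2 region and 1, *Rps9*, a decreased H3K4me1 region. No share over all coding genes was set beside these 10 kb counts, so they cannot be compared with a background. With the 5′ end only, 46 of the 47 had a TSS region, the exception being *Rps2*.

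No paired analysis was possible because the lists hold no value per sample, and leaving out a replicate was not possible for the same reason. Read depth limits the calls and is unknown here.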
